A study of Mus musculus with 18 samples.

Results

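The glucocorticoid receptor gene and 8 genes tied to its action in muscle were followed in RNA sequencing of the tibialis anterior (TA) muscle, a muscle of the shin, from mice with 5 kinds of tumour. The 9 genes were chosen by symbol: Nr3c1, Hsd11b1, Fkbp5, Klf15, Klf9, Tsc22d3, Ddit4, Arrdc2 and Sgk1. They are 9 of 29456 genes with a count, and all 9 are among the 16096 genes abundant enough to be tested. The study holds 18 libraries in 9 groups of 2, each library called a biological replicate by the labels, and muscles were taken when the mice reached endpoint. All mice were C57BL/6 except those of the C26 experiment, which were CD2F1.

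LLC, a mouse lung carcinoma line, was injected into muscle, and its control mice were injected with PBS. C26, a mouse colon carcinoma line, was injected under the skin, and its control mice received PBS. KPCML1 and KPC tumour cells were implanted orthotopically, 1000 and 50000 cells per mouse, and both groups have the same 2 control libraries, from mice given Matrigel without cells. KPP is a genetic model in which tumours were induced with tamoxifen, and its controls were mice of that model without a tumour. The sources used here do not say whether the KPP controls had tamoxifen, how old the mice were, or on which side the LLC cells and the sampled muscle lay. With 1 tumour line or model per group, the tumour, its route of delivery and the number of cells given cannot be told apart.

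Glucocorticoids are adrenal steroids released in stress, fasting and illness. They bind the glucocorticoid receptor, which waits in the cytoplasm in a complex with chaperones, moves to the nucleus and binds DNA at glucocorticoid response elements, where it raises or lowers transcription. In skeletal muscle this pathway is known for slowing protein synthesis and raising protein breakdown, and muscle wasting is a known effect of glucocorticoid excess. RNA levels do not show how much receptor is in the nucleus or how much hormone the muscle received, and neither was measured. In RNA from whole muscle, a change in the cells present and a change of RNA per cell cannot be told apart.

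Fkbp5, Klf15, Ddit4 and Arrdc2 were higher with tumour in each of the 5 comparisons, and the gene of the receptor itself passed the test in 1, that of KPC. A gene was called where the adjusted p of edgeR's quasi-likelihood test, by Benjamini and Hochberg over all 16096 genes, was under 0.05. Called higher were 6 of the 9 genes with LLC (7.39% of all genes tested), 5 with KPCML1 (4.16%), 8 with KPC (15.3%), 4 with C26 (11.5%) and 5 with KPP (17.4%). None was called lower (6.23, 4.38, 13.7, 9.8 and 19.3% of all genes in that order). Called higher in all 5 comparisons were 4 of the 9 genes, against 213 of all genes tested, or 1.32%. The 9 genes were chosen with earlier results of these data known. The shares of all genes beside them are therefore a description, not a test of the set. The KPCML1 and KPC comparisons have their control libraries in common, so their results are not independent.

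The 2 libraries of a tumour group lay above both control libraries for 6 of the 9 genes with LLC, where 31.7% of all genes did so, and for 6 with KPCML1 (30.8%). The number was 9 with KPC (31.4%), 7 with C26 (34.3%) and 7 with KPP (30.2%). Both tumour libraries lay below both controls for Hsd11b1 with LLC and for Nr3c1 with C26 (31.9% and 31.5% of all genes). The median log2 fold change of the 9 genes was 1.39 with LLC, 0.82 with KPCML1, 1.57 with KPC, 0.93 with C26 and 0.88 with KPP, while that of all genes tested lay between -0.04 and 0.04.

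**Figure D1:**
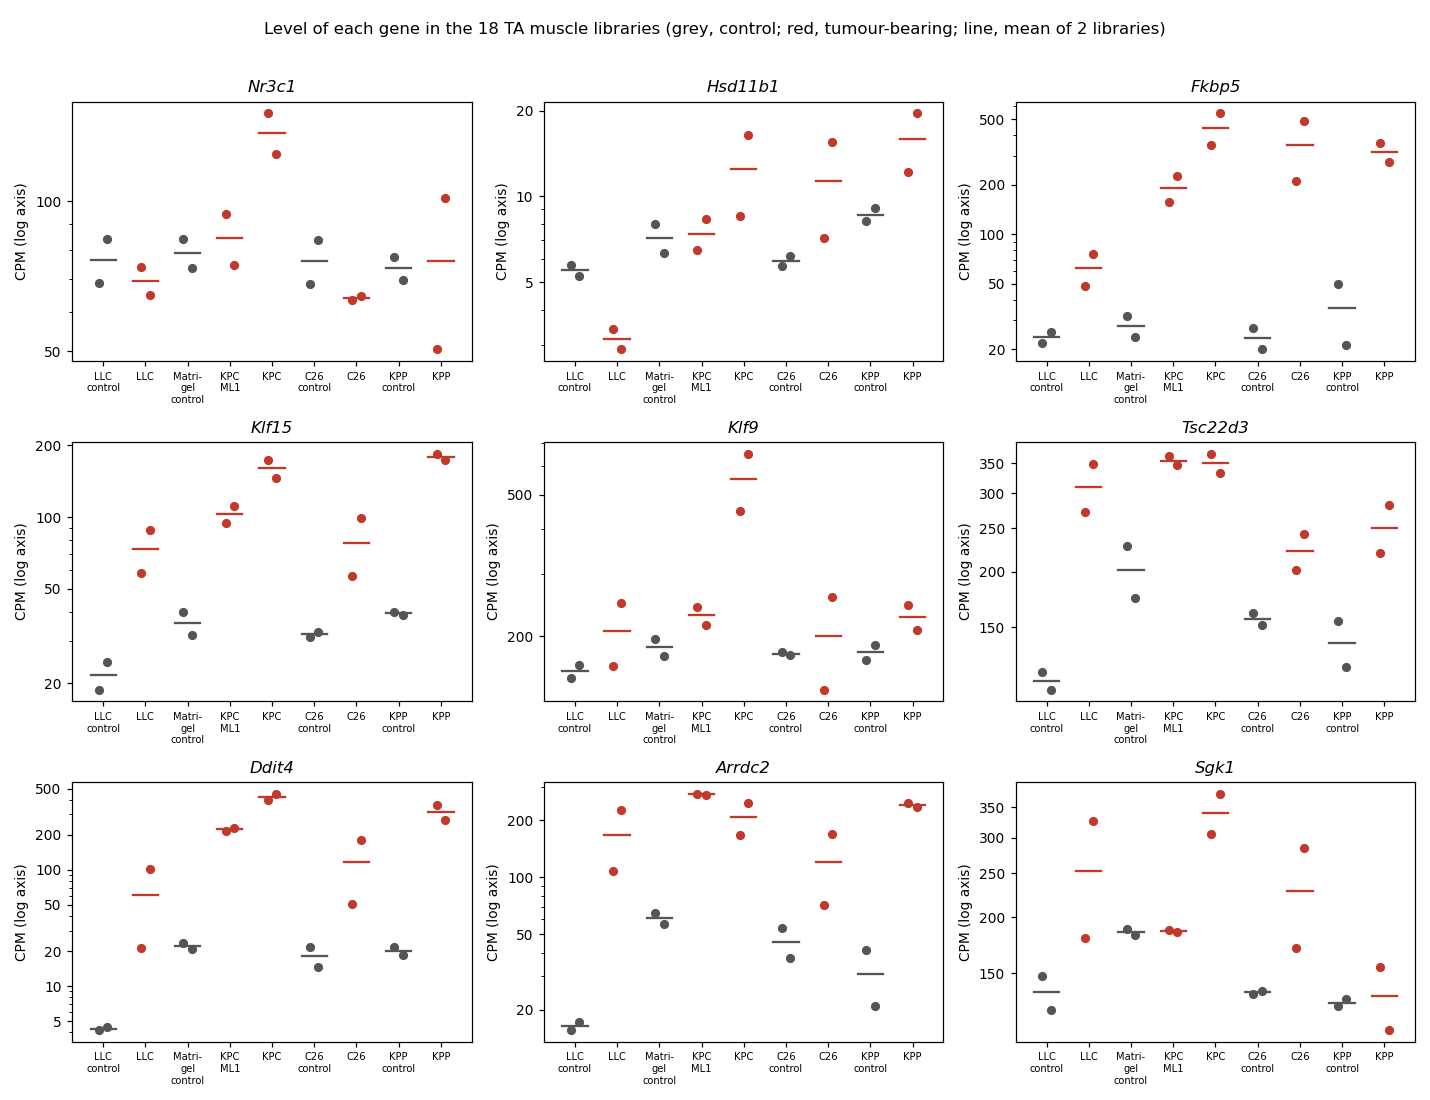
Level of each of the 9 genes in CPM (counts scaled to a fixed library total, log axis) in each of the 18 libraries. Grey points are control libraries, red points are libraries of tumour-bearing mice, and each line is the mean of the 2 libraries of a group. Red points lie above the grey points of the same experiment for Fkbp5, Klf15, Tsc22d3, Ddit4 and Arrdc2. For Nr3c1 only the KPC pair lies above all others.

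Nr3c1 encodes the glucocorticoid receptor and lies on chromosome 18. Its levels in the 8 control libraries were 68.6 and 83.9 CPM (LLC experiment), 84.0 and 73.7 (Matrigel), 68.1 and 83.8 (C26) and 77.2 and 69.6 (KPP), where CPM are counts scaled to a fixed library total. In tumour-bearing mice they were 73.8 and 64.8 CPM with LLC, 94.4 and 74.6 with KPCML1, 150.2 and 124.7 with KPC, 63.5 and 64.7 with C26 and 50.4 and 101.4 with KPP. The KPC libraries stood above all 16 others, and the KPP libraries were the lowest and the highest of those 16. In the KPC comparison Nr3c1 rose, with a log2 fold change, tumour minus control, of 0.80 ± 0.26 (the fit's standard error, with n = 2 libraries in each group) and an adjusted p of 0.0313 by edgeR. That call was lost with length-scaled counts (adjusted p 0.0519) and when any 1 of its 4 libraries was left out (0.0678 to 0.186). The differences were -0.14 ± 0.26 with LLC, 0.10 ± 0.26 with KPCML1, -0.25 ± 0.26 with C26 and 0.05 ± 0.26 with KPP, none of which passed the test.

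Hsd11b1, on chromosome 1 (193221634 to 193264075, build mm10), encodes the enzyme that turns inactive glucocorticoid into its active form inside cells. It overlaps Lamb3 and other annotated genes, and whether the quantification used strand is unknown, so its reads may include those of its neighbours. By the median over the 8 control libraries the gene was the least abundant of the 9 per length, at 5.02 TPM (3.82 to 7.06), Salmon's unit corrected for transcript length, although Ddit4 was lower in both LLC controls (2.32 and 2.62). It was at 5.73 and 5.26 CPM in the LLC controls and 3.42 and 2.90 with LLC, the only group mean under every control library. Levels were 7.97 and 6.35 in the Matrigel controls, 6.46 and 8.33 with KPCML1, and 8.53 and 16.5 with KPC. They were 5.69 and 6.18 in the C26 controls and 7.14 and 15.6 with C26, and 8.17 and 9.09 in the KPP controls and 12.2 and 19.6 with KPP. Within the KPC and C26 groups 1 library was 1.93 and 2.18 times the other. By edgeR no difference passed the test: -0.80 ± 0.38 with LLC (adjusted p 0.186), 0.04 ± 0.36 with KPCML1, 0.80 ± 0.36 with KPC (0.108), 0.93 ± 0.36 with C26 (0.0819) and 0.88 ± 0.36 with KPP (0.0683). Other settings did call it: higher with KPP by DESeq2 (adjusted p 0.0437), higher with KPC, C26 and KPP without the filter on low counts (0.0256, 0.0144 and 0.0067), and lower in a fit to the LLC experiment alone (0.0255). It was also called higher without library 1 of the KPC, C26 or KPP tumour group (0.0231, 0.0166 and 0.0453).

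Fkbp5, on chromosome 17 (28399094 to 28517527), encodes FKBP51, a chaperone partner that lowers the hormone binding of the receptor and is itself a widely used readout of receptor activity. The gene overlaps AC154912.3 and AC154912.5 on its own strand and AC154912.1 and Gm22146 on the other, so its reads may include theirs. The control libraries held 21.9 and 25.3 CPM (LLC), 31.8 and 23.6 (Matrigel), 27.0 and 20.0 (C26) and 49.7 and 21.3 (KPP). With tumour the values were 48.5 and 75.4 with LLC, 156 and 225 with KPCML1, 347 and 542 with KPC, 210.1 and 488 with C26 and 358 and 273 with KPP. The LLC libraries were the lowest of the tumour libraries, and 1 of them lay under the higher KPP control. The log2 fold changes were 1.39 ± 0.43 with LLC (adjusted p 0.0463), 2.78 ± 0.45 with KPCML1, 4.00 ± 0.47 with KPC, 3.90 ± 0.47 with C26 and 3.15 ± 0.45 with KPP (adjusted p 0.00016 to 0.0033 by edgeR in the last 4). The KPC value is a 16.0-fold difference. The LLC call was lost with other size factors (adjusted p 0.0519), with replicate number as a block (0.0560) and without any 1 of its 4 libraries (0.0566 to 0.317). The KPCML1 call was lost without Matrigel control library 2 (0.0607).

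Fkbp5 also passed a test of difference between the models, but that call depended on the setting. A joint test of the 5 log2 fold changes called 2 of the 9 genes, Fkbp5 (adjusted p 0.0391 by edgeR) and Klf9 (0.0345), where 8.3% of all genes were called. At an unadjusted p under 0.05 the number was 7 of 9, and no share of all genes is given for that threshold. Among the 10 pairs of models the Fkbp5 change with LLC was smaller than with KPC by 2.61 ± 0.61 on the log2 scale (adjusted p 0.0448, where 1.85% of all genes differed), and no other pair was called for this gene. Of 23 other settings, including those that left out 1 library, 11 lost the joint call of Fkbp5 and 10 that of Klf9. The call of Fkbp5 between LLC and KPC was lost in 13 of 23. Over the 9 genes and 10 pairs, 2 of 90 differences were called and 28 had an unadjusted p under 0.05, again without a share of all genes. Of all genes 0.18% differed between LLC and KPCML1, 0.466% between LLC and C26, 8.27% between LLC and KPP, 0.0186% between KPCML1 and C26, 3.47% between KPCML1 and KPP, 0.87% between KPC and C26, 0.0373% between KPC and KPP and 1.08% between C26 and KPP, pairs in which none of the 9 genes was called. Which genes differed depended on the tool: DESeq2 called 7 of 9 in the joint test, and a fit without the filter on low counts called 8. No share of all genes is given for these fits, so the numbers show only that the count depends on the setting.

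Klf15, on chromosome 6 (90462576 to 90475238), encodes a transcription factor that glucocorticoids induce and that is known to raise the breakdown of branched-chain amino acids in muscle. In the controls it lay at 18.8 and 24.6 CPM (LLC), 39.9 and 32.0 (Matrigel), 31.4 and 32.8 (C26) and 39.9 and 38.9 (KPP). With tumour it lay at 58.3 and 88.1 with LLC, 94.3 and 111 with KPCML1, 174 and 147 with KPC, 56.4 and 98.7 with C26 and 185 and 173 with KPP. Each of the 10 tumour libraries was above each of the 8 control libraries. Klf15 rose by 1.75 ± 0.26 on the log2 scale with LLC, 1.51 ± 0.26 with KPCML1, 2.16 ± 0.26 with KPC, 1.27 ± 0.26 with C26 and 2.18 ± 0.26 with KPP (adjusted p 8.9e-05 to 0.0044 by edgeR). The KPCML1 call was lost without Matrigel control library 2 (adjusted p 0.0752) or KPCML1 library 2 (0.0521), and the C26 call without C26 library 2 (0.0750).

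Klf9, on chromosome 19 (23141226 to 23168134), encodes another Krüppel-like factor that glucocorticoids induce in many tissues. Control levels were close to each other, at 153 and 166 CPM (LLC), 197 and 176 (Matrigel), 180.2 and 178 (C26) and 172 and 189 (KPP). The KPC libraries held 451 and 652 CPM, while the other tumour libraries held 165 and 248 (LLC), 242 and 216 (KPCML1), 142 and 258 (C26) and 246 and 209 (KPP). KPC stood apart from every other group, and 1 of the 2 C26 libraries lay below all controls. Klf9 rose with KPC (1.57 ± 0.27, adjusted p 0.0012 by edgeR), and the other values, 0.16 to 0.37, did not pass the test. KPCML1 and KPC differ in the tumour cells and in their number, 1000 and 50000 per mouse, which cannot be told apart. The change with KPCML1 was smaller than with KPC by 1.27 ± 0.27 on the log2 scale (adjusted p 0.0195, where 5.99% of all genes differed), a difference in which the shared controls cancel. It was not called without either KPCML1 library or without KPC library 2 (adjusted p 0.116 to 0.163).

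**Figure D2:**
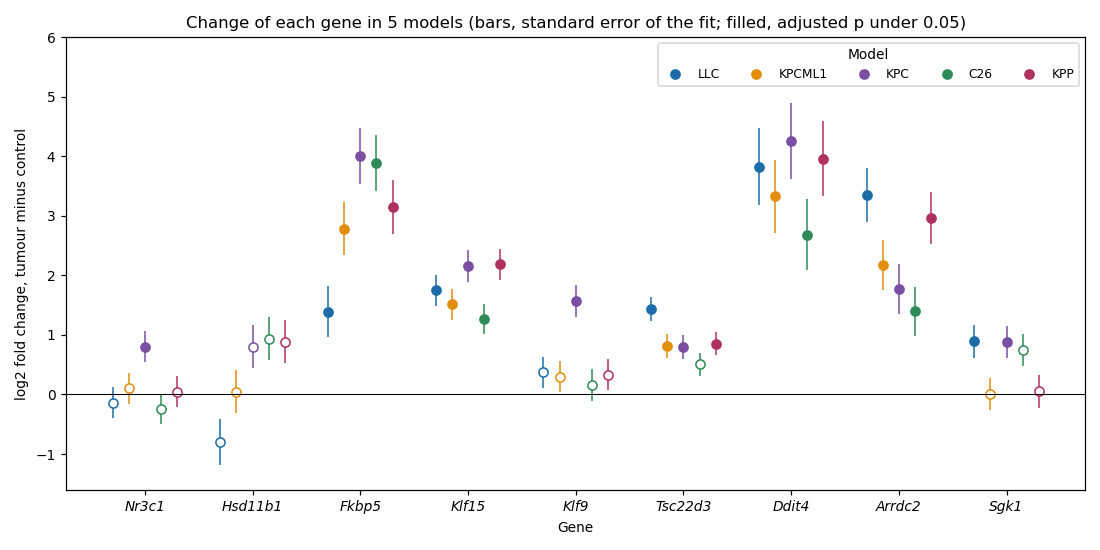
Log2 fold change (tumour minus control) of the 9 genes in the 5 comparisons. Points are values of the edgeR fit with 2 libraries per group, bars are ± 1 standard error, and filled points have an adjusted p under 0.05. Fkbp5, Klf15, Ddit4 and Arrdc2 are filled in all 5 models, Klf9 and Nr3c1 in KPC alone, and Hsd11b1 in none.

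Tsc22d3, on chromosome X (140539528 to 140600659), encodes GILZ, a leucine zipper protein that glucocorticoids induce and that restrains inflammatory transcription factors. It was the most abundant of the 9 genes per length by the median over the 8 control libraries, at 91.8 TPM (57.6 to 135), although Sgk1 was higher in LLC control library 1 (62.7 against 60.9). The controls held 119 and 109 CPM (LLC), 228 and 175 (Matrigel), 162 and 152 (C26) and 155 and 122 (KPP), and the tumour libraries 271 and 348 (LLC), 364 and 346 (KPCML1), 368 and 332 (KPC), 201 and 243 (C26) and 220.04 and 282 (KPP). Within each experiment both tumour libraries were above both controls. The gene rose with LLC (1.44 ± 0.20, adjusted p 0.00066 by edgeR), KPCML1 (0.82 ± 0.20, 0.0232), KPC (0.80 ± 0.20, 0.0089) and KPP (0.86 ± 0.20, 0.0044), and the C26 value was 0.50 ± 0.20 (0.0832). Without Matrigel control library 2 the calls with KPCML1 and KPC were lost (adjusted p 0.250 and 0.125), and the KPCML1 call was also lost without either KPCML1 library (0.0707 and 0.117).

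Reads of Tsc22d3 came from transcripts with different starts, and their shares shifted. Tsc22d3-201, which starts at position 140543187, held 60.3 to 66.6% of the gene's TPM in the LLC controls and 80.7 to 83.6% with LLC. Its share was 74.1 to 81.4% in the Matrigel controls, 87.1 to 89.98% with KPCML1 and 83.7 to 89.5% with KPC. It was 63.5 to 65.2% in the C26 controls and 85.2 to 87.4% with C26, and 68.0 to 78.3% in the KPP controls and 82.8 to 87.1% with KPP. In all 5 comparisons both tumour libraries had a higher share than both controls, which held for the main transcript of 51 of 9307 genes (0.548%) whose main transcript took 10 to 90% of their TPM. In a single comparison it held for 17.3% of those genes with LLC, 22.4% with KPCML1, 20.7% with KPC, 18.4% with C26 and 15.3% with KPP. Klf9-201, with 98.8% of the TPM of Klf9, is outside that limit, but it too had a higher share with tumour in all 5 comparisons. Its share was 94.6 to 97.7% in controls and 99.1 to 100% with tumour.

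Tsc22d3-203, which starts at 140600659 at the far end of Tsc22d3, did not move the same way as Tsc22d3-201. Its level was 10.9 to 16.0 TPM in the LLC controls and 21.6 to 31.9 with LLC, but 18.8 to 24.6 in the C26 controls and 14.8 to 18.2 with C26. It was 16.8 to 19.2 TPM in the Matrigel controls, 13.4 to 17.8 with KPCML1 and 14.5 to 23.9 with KPC, and 9.72 to 13.4 in the KPP controls and 9.34 to 10.4 with KPP. Tsc22d3-201 meanwhile went from 55.0 to 74.1 TPM in the C26 controls to 131 to 197 with C26, the comparison in which the whole gene was not called. Salmon divides reads among transcripts by a model, and with 2 libraries per group no test of the shares was made.

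**Figure D3:**
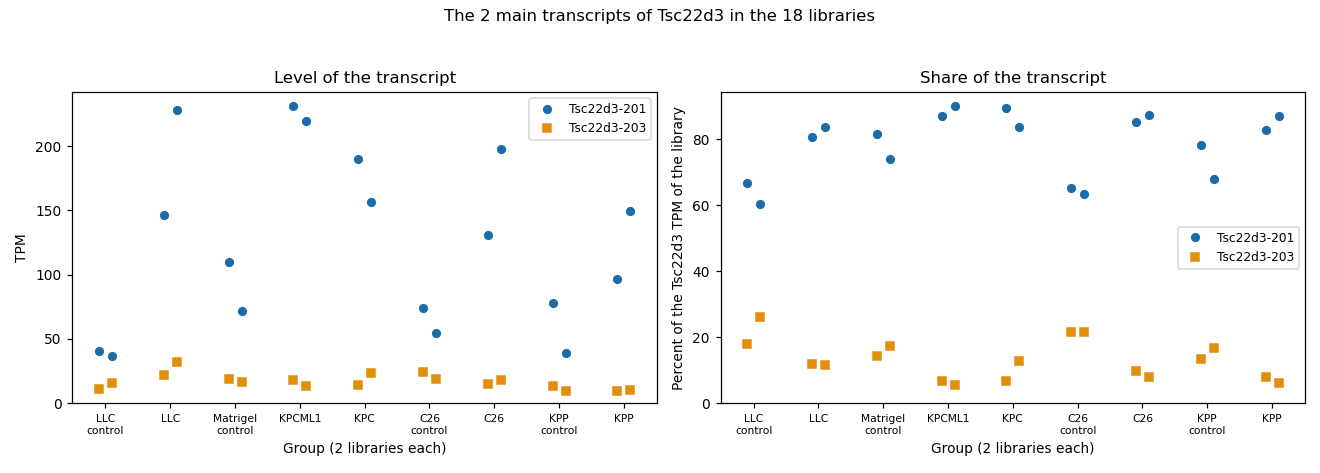
Level (TPM, left) and share of the gene's TPM (percent, right) of the 2 main transcripts of Tsc22d3 in each library. Circles are Tsc22d3-201 and squares Tsc22d3-203, with 2 libraries per group. The circles of each tumour group lie above those of its controls on the right, from 60.3 to 81.4% in controls to 80.7 to 89.98% with tumour.

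The other genes ranged from 1 transcript to several. The largest share of the TPM of Nr3c1 was 41.8%, held by Nr3c1-204, with 34.9% in Nr3c1-203, and Hsd11b1-201 held 55.1% of the TPM of Hsd11b1. Ddit4 has a single transcript in the deposited data, Klf9-201 held 98.8% of the TPM of Klf9, and Klf15-201, Sgk1-201 and Fkbp5-201 held 81.1%, 81.8% and 76.0%. The share of Klf15-201 was lower in both tumour libraries than in both controls with LLC, KPC, C26 and KPP. It was 66.9 to 80.4% with KPC, against 90.6 to 94.99% in the Matrigel controls. With KPP it was 69.1 to 75.5%, against 91.6 to 93.8% in the controls. It was 84.6 to 86.97% with C26 and 89.3 to 90.87% with LLC, where the controls held 90.95 to 91.4%. With KPCML1, at 73.1 to 91.6%, it overlapped the controls. These shares were not tested, and no share of all genes is given for a main transcript that was lower with tumour. Fkbp5-203, a transcript without a coding sequence, was listed at 0 in 1 library of each control group, and its level was up to 1.73 TPM in controls and 3.06 to 69.8 TPM with tumour. Arrdc2-201, the main coding transcript, held 52.1%, with 3 transcripts that retain introns at 10.8 to 13.7% each.

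Ddit4, on chromosome 10 (59949669 to 59951834), encodes REDD1, an inhibitor of the growth-promoting kinase complex mTORC1 that glucocorticoids and energy stress induce. It had the lowest control values in the LLC experiment, at 4.20 and 4.43 CPM, against 23.3 and 20.9 (Matrigel), 21.8 and 14.5 (C26) and 21.7 and 18.7 (KPP). With tumour it lay at 21.3 and 101.2 with LLC, 216 and 229 with KPCML1, 399 and 449.9 with KPC, 51.0 and 182 with C26 and 363 and 267 with KPP. The lower LLC tumour library was thus within the range of the other experiments' controls, and the higher was 4.75 times the lower. Ddit4 rose by 3.83 ± 0.65 on the log2 scale with LLC, 3.33 ± 0.61 with KPCML1, 4.26 ± 0.64 with KPC, 2.68 ± 0.60 with C26 and 3.96 ± 0.63 with KPP (adjusted p 0.00044 to 0.0068 by edgeR). These are fold changes of 6.42 (C26) to 19.2 (KPC). The KPCML1 call was lost without either Matrigel library (adjusted p 0.0541 and 0.0909), and the C26 call without C26 control library 2 (0.0861) or C26 tumour library 2 (0.136, at a log2 fold change of 1.49).

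Arrdc2, on chromosome 8 (70835129 to 70839720), encodes an arrestin domain protein of the family that guides membrane proteins to breakdown, and is known as a glucocorticoid-responsive gene of muscle. The controls held 15.6 and 17.3 CPM (LLC), 65.1 and 56.4 (Matrigel), 54.1 and 37.3 (C26) and 41.2 and 20.8 (KPP). With tumour the values were 108 and 228 (LLC), 276 and 273 (KPCML1), 168 and 247 (KPC), 71.4 and 169 (C26) and 248 and 236 (KPP). All 10 tumour libraries were above all 8 controls. Arrdc2 rose by 3.35 ± 0.45 with LLC, 2.18 ± 0.42 with KPCML1, 1.77 ± 0.42 with KPC, 1.40 ± 0.41 with C26 and 2.96 ± 0.44 with KPP on the log2 scale (adjusted p 0.00028 to 0.0282 by edgeR). The C26 call was lost without C26 tumour library 2 (0.429, at a log2 fold change of 0.64), without either C26 control library (0.0842 and 0.226) and in a fit to the C26 experiment alone (0.0590). The KPCML1 call was lost without either Matrigel library or KPCML1 library 2 (0.0571 to 0.110), and the KPC call without Matrigel library 2 or KPC library 2 (0.0730 and 0.0699).

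Sgk1, on chromosome 10 (21882184 to 21999903), encodes a kinase that glucocorticoids and mineralocorticoids induce and that acts on ion channels and FoxO factors. Controls held 148 and 125 CPM (LLC), 189 and 182 (Matrigel), 135 and 137 (C26) and 127 and 131 (KPP). With tumour the values were 179.65 and 326 (LLC), 187 and 185 (KPCML1), 306 and 375 (KPC), 171 and 285 (C26) and 155 and 112 (KPP). KPCML1 and its controls shared 1 narrow range, and the KPP libraries lay on either side of their controls. Sgk1 rose with LLC (0.89 ± 0.27, adjusted p 0.0444 by edgeR) and KPC (0.88 ± 0.27, 0.0272), and was at 0.01 ± 0.27 with KPCML1, 0.74 ± 0.27 with C26 (0.0667) and 0.05 ± 0.27 with KPP. The LLC call was lost with other size factors (0.0504), length-scaled counts (0.0551), the replicate block (0.0537) and without LLC tumour library 2 (0.517, at 0.40) or either LLC control (0.166 and 0.261). The KPC call was lost without either Matrigel library or KPC library 2 (0.128 to 0.203). With C26 it was called without the filter on low counts (0.0135) and without C26 tumour library 1 (0.0253).

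DNA sequence beside the start sites is shown for Sgk1 first, because 1 of its windows held the full motif searched for. The windows from 250 bases before to 50 bases after each start in RefSeq (build GRCm38.p6, the same assembly as mm10) were searched for the consensus of the glucocorticoid response element, the arms AGAACA and TGTTCT with any 3 bases between them, a palindrome that reads the same on both strands. Of the 9 genes 8 have windows, 15 in all, and Nr3c1 has none in that table. Among 14513 windows of 11354 tested genes exactly 1 held the full motif (0.00689%), and it belongs to an alternative start of Sgk1. The 250 bases before that start, chr10:21993640-21993889 on the plus strand, are shown with every 6-base arm of the motif (AGAACA or TGTTCT) in capitals, and the full match covers bases -189 to -175 from the start.
Sgk1, start at 21993890: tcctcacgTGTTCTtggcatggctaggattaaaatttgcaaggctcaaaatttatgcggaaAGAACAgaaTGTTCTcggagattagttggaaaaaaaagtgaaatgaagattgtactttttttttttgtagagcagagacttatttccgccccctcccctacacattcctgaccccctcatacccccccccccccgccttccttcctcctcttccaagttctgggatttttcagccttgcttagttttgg
The match lies 965 to 951 bases before 21994666, the start of Sgk1-201, which held 81.8% of the gene's TPM.

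In the window at the start of Sgk1-201 itself the closest stretch differed from the motif at 4 of its 12 fixed bases. For the 4 genes called in all 5 comparisons the closest stretches differed at 4 to 6 bases, and they are shown with the 15 aligned bases in capitals to set them beside the Sgk1 match. They are not read as response elements, and no share of all windows is given for matches that distant.
Sgk1, chr10:21993686-21993730 (+), 0 bases differing: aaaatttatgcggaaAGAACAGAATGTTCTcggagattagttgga
Fkbp5, chr17:28486275-28486319 (-), 6 bases differing: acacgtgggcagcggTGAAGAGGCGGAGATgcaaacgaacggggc
Klf15, chr6:90462328-90462372 (+), 5 bases differing: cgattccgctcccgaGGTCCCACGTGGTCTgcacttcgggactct
Ddit4, chr10:59951945-59951989 (-), 5 bases differing: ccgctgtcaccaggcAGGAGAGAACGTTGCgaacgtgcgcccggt
Arrdc2, chr8:70839838-70839882 (-), 4 bases differing: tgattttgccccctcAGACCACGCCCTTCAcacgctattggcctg
With at most 1 base differing, 1 of the 15 windows and 0.103% of all windows matched. With at most 2, the count was 2 of 15, both of Sgk1, against 1.23%, and with at most 3 it was 3 of 15, all of Sgk1, against 9.51%. At least 1 arm was present in 4 of the 15 windows, of Sgk1 and Tsc22d3, and in 13.25% of all windows. Sgk1 has 6 of the 15 windows. A match in these letters is a description of the sequence, and response elements farther from the starts or inside genes were not searched.

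The control groups themselves were not alike for every gene. The LLC controls had the lowest mean of the 4 control groups for Hsd11b1, Klf15, Klf9, Tsc22d3, Ddit4 and Arrdc2, and for Ddit4 and Arrdc2 both libraries lay under all other 16 libraries. A joint test over the 4 control groups called 0 of the 9 genes by edgeR (2.79% of all genes), with 4 at an unadjusted p under 0.05: Arrdc2 (adjusted p 0.0929), Tsc22d3 (0.132), Ddit4 (0.177) and Klf15 (0.279). DESeq2 called 2, Arrdc2 and Tsc22d3, and a fit without the low-count filter called 4. For the unadjusted threshold and for these fits no share of all genes is given. The C26 controls, the only CD2F1 control mice, did not pass the test against the C57BL/6 controls for any of the 9 genes (adjusted p 0.528 to 1.00, 3.95% of all genes called), with differences from -0.28 ± 0.35 for Fkbp5 to 0.54 ± 0.46 for Ddit4 on the log2 scale.

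Libraries of the same group were not alike either. With C26 all 9 genes were higher in library 2 than in library 1, by 3.57 times for Ddit4, 2.37 for Arrdc2, 2.32 for Fkbp5 and 2.18 for Hsd11b1. With LLC 7 of the 9 genes were higher in library 2, led by Ddit4. The C26 count of 4 called genes was 1 without C26 library 2 and 2 without C26 control library 2. Of the other counts, the 5 with KPCML1 was 0 without Matrigel library 2, 3 without Matrigel library 1 and 2 without KPCML1 library 2, and the 8 with KPC was 4 without Matrigel library 2 and 5 without KPC library 2. All 9 genes were higher in Matrigel library 1 than in library 2. With LLC and KPP leaving out 1 library gave 4 to 5 and 5 to 6 called genes.

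Markers of other cell types differed with tumour as well. The summed level of 6 neutrophil markers was 1.09 to 2.60 CPM in controls and 6.24 to 8.03 with LLC, 16.3 to 31.3 with KPCML1, 46.2 to 64.7 with KPC, 8.60 to 25.1 with C26 and 19.8 to 60.4 with KPP, while Ly6g, a defining marker of these cells, was at 0 in 13 of the 18 libraries. The sum of 5 erythroid markers was 219 to 647 CPM in controls, 665 to 5280 with LLC, KPCML1 and KPC, 124 to 232 with C26 and 338 to 2643 with KPP. Of 7 macrophage markers 3 rose with KPCML1 and 1 with KPP. Of 6 fibro-adipogenic markers 2 to 4 fell in each comparison, and of 6 endothelial markers all fell with KPP and 1 rose with LLC. Of 4 satellite cell markers 1 fell with KPCML1, 2 with KPC and 2 with KPP. Of the 6 myofibre markers 1 fell with LLC, 2 fell with C26, and 1 rose and 1 fell with KPP. Of 6 adipocyte markers 1 to 3 rose with LLC, KPCML1 and KPC, and 4 and 5 fell with C26 and KPP. T cell markers stayed at or below 0.566 CPM in sum, and the myofibre markers, which define the tissue, were at 59328 CPM or more in sum. The lowest of the myofibre sums was in C26 library 2, where the other C26 library held 116910, and the neutrophil sum was 25.1 CPM in that library and 8.60 in the other. The part of these cell types in the results was not tested.

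The genes that hold or switch the receptor come next. Of 22 genes of the receptor machinery, which are chaperones, cofactors, the mineralocorticoid receptor and enzymes of steroid conversion, 21 were tested. Called higher were 2 with LLC, 2 with KPCML1, 6 with KPC, 3 with C26 and 3 with KPP, and 1 was called lower, with C26. Of all genes tested, 7.39, 4.16, 15.3, 11.5 and 17.4% were called higher in that order. The shares called lower were 6.23, 4.38, 13.7, 9.8 and 19.3%, and 1.32% of all genes were called higher in all 5. These shares also stand beside the counts of the cell type markers above and of the lists below. Hsp90ab1, a subunit of the chaperone that holds the receptor ready for hormone, rose in all 5 comparisons (1.22 to 1.71 on the log2 scale), and so did Ptges3, its cochaperone p23 (0.66 to 1.12). H6pd, which supplies the cofactor of the enzyme encoded by Hsd11b1, rose with KPC (2.10). Nr3c2, the mineralocorticoid receptor, fell with C26 (-1.14), and Crebbp, a coactivator, was called higher in 2 comparisons (up to 1.30). The median log2 fold change of this list was 0.06 to 0.36.

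Of 30 other genes known to be induced by glucocorticoids 29 were tested, and called higher were 16 with LLC, 20 with KPCML1, 25 with KPC, 19 with C26 and 20 with KPP. Their median log2 fold change was 1.496, 1.62, 2.88, 1.89 and 1.79 in that order. Called in all 5 were 10 genes: the ubiquitin ligases Fbxo32 (1.88 to 3.15) and Trim63 (2.86 to 4.41), the FoxO factors Foxo1 (1.83 to 3.53) and Foxo3 (1.17 to 2.68), Cebpb (0.95 to 2.47), Cebpd (2.46 to 4.63), the translation repressor Eif4ebp1 (1.54 to 3.96), the glutamine synthetase Glul (1.58 to 2.88), the metallothionein Mt2 (3.12 to 8.84) and the cell cycle inhibitor Cdkn1a (3.10 to 6.26). A further 7 rose in 4 comparisons: Mt1, Pik3r1, Nfkbia, Errfi1, Sesn1, Lcn2 and Gadd45g. Not every listed gene followed: the repressor gene Bcl6 fell with KPCML1, KPC and KPP (down to -2.73), Cdkn1c fell in 2 comparisons, and Dusp1 fell with C26 (-1.54). Many of these genes also answer to cytokines, FoxO factors or p53, so the list is not specific to glucocorticoids. The list was also chosen with earlier results of these data known, so its counts are a description. The LLC count was 6, 10 and 7 without control library 1, control library 2 and LLC library 2, and the KPCML1 count 10, 7 and 7 without Matrigel library 1, Matrigel library 2 and KPCML1 library 2. Bcl6, Cdkn1c and Dusp1 were named after their values were seen.

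**Figure D4:**
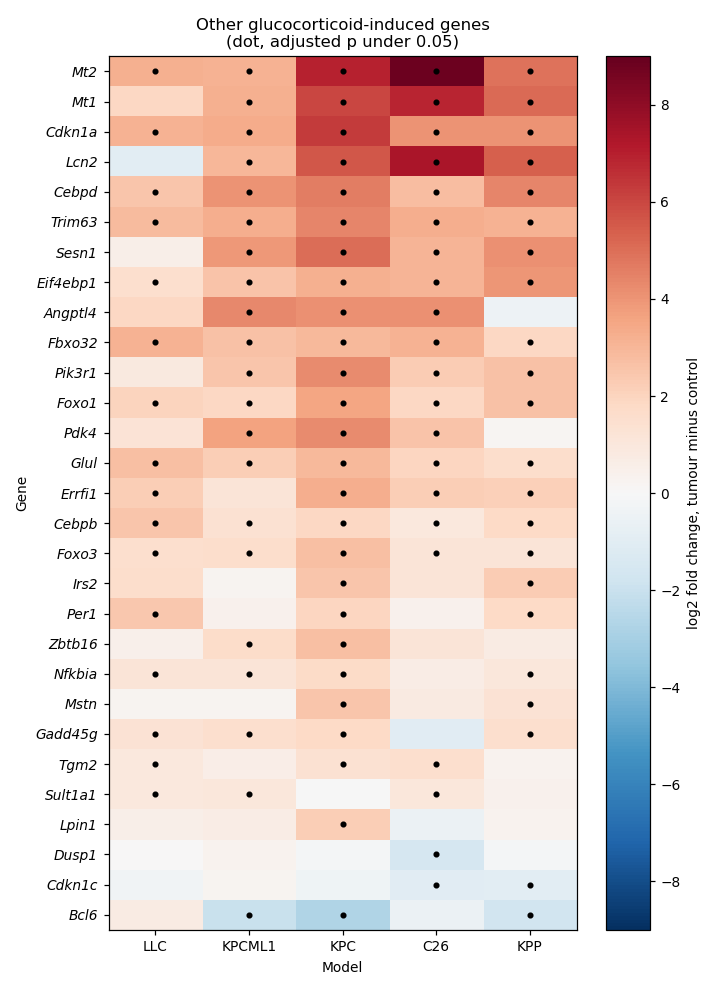
Log2 fold change (tumour minus control, colour scale) of the 29 tested genes of the list of other glucocorticoid-induced genes, 1 row per gene and 1 column per model, ordered by their mean. Dots mark an adjusted p under 0.05 by edgeR. Mt2, at 3.12 to 8.84, heads the list and Bcl6 closes it.

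Genes of pathways linked to Klf15 and Ddit4 included some called higher and some called lower. Of 14 genes of branched-chain amino acid breakdown and its links to Klf15, 13 were tested, and called higher against lower were 0 and 2 with LLC, 0 and 0 with KPCML1, 6 and 1 with KPC, 3 and 2 with C26 and 3 and 1 with KPP. Prodh, the first enzyme of proline breakdown (0.80 to 1.67), Bckdhb, a subunit of the branched-chain ketoacid dehydrogenase (0.31 to 1.64), and Acadsb (0.22 to 0.77) were each called higher in 3 comparisons. Ppm1k, the phosphatase that activates that dehydrogenase, was called lower in 3 (down to -1.30). Bckdk, the kinase that opposes it, was called lower in 2 (down to -0.74), and the alanine aminotransferase genes Gpt and Gpt2 were called lower and higher in 1 each (-1.13 and 1.05).

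Of 14 genes of the mTORC1 complex, which REDD1 restrains, and of its regulators, called higher against lower were 3 and 1 with LLC, 0 and 1 with KPCML1, 3 and 3 with KPC, 3 and 2 with C26 and 3 and 3 with KPP. Mtor, the kinase itself, rose in 4 comparisons (0.36 to 1.43 over all 5), and Sesn3, of the sestrin family that restrains the complex, fell in 4 (-1.08 to 0.02). Eif4e, the cap-binding factor whose repressor is Eif4ebp1, fell in 3 (-1.48 to -0.50 over all 5). Mlst8, a subunit of the complex, was called lower in 2 (down to -0.97), and Tsc2, its upstream inhibitor, higher in 1 (up to 0.79).

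Close relatives of the 9 genes were mixed. Of 18 relatives 17 were tested, with 3 higher and 0 lower with LLC, 5 and 0 with KPCML1, 8 and 1 with KPC, 3 and 2 with C26 and 5 and 3 with KPP. Arrdc3 (1.60 to 3.39), Klf10 (1.34 to 2.93) and Klf6 (0.88 to 1.13) rose in all 5. Txnip, an arrestin-like gene that lowers glucose uptake, rose with KPCML1 (2.03) and KPC (2.63). Ddit4l, the close relative of Ddit4, was called lower in 2 comparisons (down to -1.84), and Tsc22d4 in 3 (down to -1.21).

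Of 15 clock and clock-output genes, a set listed because glucocorticoids set peripheral clocks and because hours of sampling are not given, 3 were called higher and 1 lower with LLC, 1 and 3 with KPCML1, 5 and 3 with KPC, 4 and 5 with C26 and 4 and 5 with KPP. Dbp (down to -4.78), Hlf (down to -2.29) and Nr1d1 (down to -1.44) fell in 4 comparisons, and Nfil3, the repressor that opposes Dbp, rose in 4 (0.80 to 3.55 over all 5). Cry2 (up to 3.15) and Arntl (up to 3.54) were called higher in 3, and Tef (up to 0.80) and Per2 (up to 1.86) in 1 each. Several of the 9 genes vary over the day in muscle, and the part of sampling time in the results was not tested.

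For each gene called at least once, the 3 genes with the most similar pattern over the 10 tumour libraries were found by the root mean square difference of log2 CPM minus the mean of the own controls, among 8642 genes. Nearest to Fkbp5 were Eif4ebp1 (0.70), Egln3 (0.72) and Retreg1 (0.74), where the root mean square of the Fkbp5 changes themselves was 3.19. Ddit4 had Trim63 (0.76), Cebpd (0.77) and Sik1 (0.79) beside it, against its own 3.59. Nearest to Arrdc2 were Hgs (0.71), Myh14 (0.77) and Klhl38 (0.79), against 2.45. Klf15 was followed most closely by Pnrc1 (0.28), Pim3 (0.32) and Gcn1l1 (0.38), against 1.81, and Tsc22d3 by Ypel3 (0.22), Tmco6 (0.25) and Tulp3 (0.26), against 0.94. The genes nearest to Klf9 were Rbbp6 (0.22), Zbtb2 (0.26) and Lin54 (0.30), against 0.78, those nearest to Sgk1 were Rnf19b (0.27), Kat7 (0.30) and Gatad2a (0.30), against 0.68, and those nearest to Nr3c1 were Sipa1l1 (0.23), Tmem170b (0.24) and Pou2f1 (0.28), against 0.45. None of the 9 genes was among the 3 nearest of another. The 10 libraries share their control means within an experiment, and these distances were not tested.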

How the data were processed

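Per the labels, total RNA of snap-frozen muscle was extracted with Trizol, and poly(A) libraries made with a directional kit were sequenced as pairs of 150 bases. The submitters' processing notes name bcl2fastq 2.20, FastQC, Salmon, DESeq2 and build mm10, and for Salmon no version or strand setting is given in the sources used here. The authors deposited, for each of 18 libraries and 140825 transcripts, estimated counts of fragments, which were not normalised, effective lengths (another column, in bases), and TPM, scaled by Salmon within the library. The authors' own comparison tables were not used.

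Transcripts were matched by identifier to GENCODE M21, and 867 were unmatched (0.412 to 0.685% of fragments). The estimated counts of a gene's transcripts were added and then rounded, giving 22546541 to 36673780 fragments per library. After filterByExpr, 16096 genes were fitted in 1 model of 9 groups with TMM scaling and edgeR 4.0.16 (R 4.3.3) quasi-likelihood, with 9 residual degrees of freedom. The correlation across genes between libraries of a group was 0.959 to 0.983. The tests set the difference between groups against the spread between the 2 libraries of a group. That spread is pooled over groups and drawn toward that of other genes (5.05 prior degrees of freedom).

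The 9 genes, the lists and the tests were chosen with earlier results of these data known. Named beside the 9 genes are list genes called in the same direction in at least 4 of 5 comparisons, otherwise at most 3 called genes of smallest p per list and comparison, and the 3 nearest genes of each. Alternatives tried were DESeq2 1.42.0, relative log expression in place of TMM, no low-count filter, length-scaled counts, a replicate block, each experiment alone and leaving out each library, whose partner is then assumed to vary like the other groups. In data simulated for the LLC comparison over 16096 genes, 20% of 100 genes changed 2-fold and 56% of 100 changed 4-fold were called, with 3 unchanged genes. Promoter windows were searched in Python 3.11.15.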

Additional observations from a re-analysis of the deposited data

Results flagged for a closer look

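The change of Fkbp5 with tumour differed between the LLC and KPC models, by -2.61 ± 0.61 on the log2 scale (LLC minus KPC, adjusted p 0.0448 by edgeR, with every KPC library above every LLC library). It was marked because the test of the difference itself passed. The difference was not called in 13 of 23 alternatives, among them length-scaled counts (adjusted p 0.0516) and the replicate block (0.0524). With 1 library left out it ranged from -2.97 to -2.21. The change of Klf9 differed between KPCML1 and KPC, by -1.27 ± 0.27 (KPCML1 minus KPC, adjusted p 0.0195), again by the test of the difference, with both KPC libraries above both KPCML1 libraries. In that difference the tumour cells and the number of cells implanted cannot be told apart. Groups of 2 libraries are too small for a test of single outlying libraries.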

How the results depend on the processing

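Of 459 values of single genes under the alternatives, 394 kept their direction and their side of the threshold, 41 lost a call, 10 gained one and 14 turned sign. None of the 14 was called before or after. Nr3c1 was at -0.0089 and -0.035 with KPCML1 without Matrigel control replicate 2 and KPCML1 tumour replicate 1 (range over libraries left out -0.035 to 0.30), and at -0.011 and -0.47 with KPP without KPP control replicate 2 and KPP tumour replicate 2 (-0.47 to 0.47). Hsd11b1 with KPCML1 was at -0.13 and -0.11 without Matrigel control replicate 2 and KPCML1 tumour replicate 2 (-0.13 to 0.26), and Klf9 with C26 at -0.34 without C26 tumour replicate 2 (-0.34 to 0.50). Sgk1 with KPCML1 was at -0.0014 with other size factors, -0.0014 with DESeq2, -0.0011 without the filter on low counts, -0.045 with length-scaled counts, -0.0028 in the experiment alone and -0.038 without Matrigel control replicate 2 (-0.038 to 0.053), and with KPP at -0.20 without KPP tumour replicate 1 (-0.20 to 0.33).

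Leaving out 1 library gave 4 to 5 called genes with LLC, 0 to 4 with KPCML1, 4 to 8 with KPC, 1 to 6 with C26, 5 to 6 with KPP, 0 to 4 differing among models and 0 to 1 among controls. Among models DESeq2 called 7 and the fit without the filter 8, and among controls 2 and 4, with no share of all genes given for these fits. Response element matches in 1 window became 2 and 3 when 2 and 3 bases could differ, settings chosen after seeing the data. The cause was not tested. The deviations of same-numbered libraries correlated at -0.17 in KPP to 0.093 in KPCML1. With 2 libraries per group these values cannot show whether such libraries were paired. With the replicate block the counts were 4 with LLC, 5 with KPCML1, 8 with KPC, 4 with C26, 5 with KPP, 2 among models and 0 among controls. A crossed block in KPP, added after seeing the data, also gave 5. The planned wider promoter windows were not run.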
